A study of Mus musculus with 4 samples.

Results

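CD4 T cells that carried Nkg7 RNA but no detected Gzmk RNA were selected from single cells of mouse kidney tumors profiled for RNA and surface protein together (CITE-seq). A called cell was kept if the number of genes detected in it lay between 200 and 3000 and if no more than 5% of its UMIs (unique molecular identifiers, 1 per captured molecule) were mitochondrial. It was taken when it held at least 1 Cd4 UMI, at least 3 Nkg7 UMIs and no UMI of Cd8a, Cd8b1, Foxp3 or Gzmk. The rule found 308 cells among 38860 called cells, 21900 kept cells and 4753 kept CD4 cells, and these are called Gzmk-negative cells below. The measured RNA of Cd4, Cd8a, Cd8b1, Foxp3, Nkg7 and Gzmk chose the cells, so the levels of these genes are descriptions and were not tested.

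CD4 T cells are known mainly as helpers that signal to other immune cells through cytokines and surface ligands, but some acquire features of killer cells, with granzymes, perforin and chemokines that draw in other leukocytes. Nkg7 encodes a granule membrane protein of cytotoxic lymphocytes, and Gzmk encodes granzyme K, a granule protease often seen in effector memory T cells. CD38 and CD39 are surface enzymes that act on NAD and on extracellular ATP, and both are known from chronically stimulated T cells in tumors.

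The tumors grew under the skin of C57BL/6J male mice injected at 6 weeks of age with Tsc2-deficient 105K kidney tumor cells. The tumor cells of all groups lacked Tsc2, a brake on mTORC1 signaling, and carried either a non-targeting hairpin (sh-NC) or 1 hairpin against B7-H3 (sh-B7-H3 (1)), the checkpoint protein encoded by Cd276. Live CD3+ cells were sorted from 80 tumors in each group, which were pooled, and each group has 2 libraries. Because tumors were pooled, a library is no single mouse. Whether the libraries of a group came from 1 pool or from separate ones is not settled by the sources, and p-values speak only of the spread between these libraries. The knockdown was in the tumor cells and cannot be checked in these T cells, whose Gzmk-negative members held no Cd276 UMI. The libraries held 7030 to 12112 called cells and 79224898 to 132820909 RNA UMIs.

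Of the label markers, Nkg7 and Cd4 were fixed by the rule and say nothing of the label, while Ccl4, Cxcr6 and Il2rb were not part of it and were detected in every library. All 6 T cell markers were detected in every library as well and summed to between 8575 and 9716 CPM (counts per 1000000 RNA UMIs of the cells). The median depth of the cells was 6295 and 6878 RNA UMIs in sh-NC and 6906 and 6518.5 in sh-B7-H3 (1), so the groups overlapped in depth. Of 7 NK and NKT markers, Ncr1, Zbtb16, Klra8 and Klra4 were at 0 in every library, and Klrb1c gave 3 UMIs in sh-NC library 2 and none in the others. The 7 genes summed to 37.4 and 79.9 CPM in sh-NC and 130 and 145 CPM in sh-B7-H3 (1), against 10.7 to 43.7 CPM in Nkg7-zero CD4 cells, and Eomes, which effector T cells also express, gave most of each sum in the selected cells. The part of such cells in the differences between the hairpin groups was not tested. Trdc, which encodes the constant part of the gamma-delta receptor, stood at 10.7 and 190 CPM in sh-NC and 2.63 and 0 CPM in sh-B7-H3 (1), and its 50 UMIs in sh-NC library 2 came from 3 cells. Of 4 regulatory T cell markers (Foxp3, Il2ra, Ikzf2 and Ctla4), Foxp3 was held at 0 by the rule. The list summed to 182 and 190 CPM in sh-NC and 282 and 332 CPM in sh-B7-H3 (1), against 40.8 to 72.2 CPM in Nkg7-zero cells. A cell with 0 Foxp3 UMIs may still hold Foxp3 RNA, and the part of regulatory T cells was not tested. A doublet caller scored 14.7% to 23.1% of the selected cells as possible doublets, and the CD8b tag passed its threshold on 0% to 8.96% of them. Pairs of libraries shared 17 to 35 barcodes, against 18.3 to 36.6 given by chance.

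The cells made up a larger share of the sh-B7-H3 (1) libraries. Among kept cells they were 0.397% (95% exact binomial interval 0.268 to 0.567) and 0.562% (0.391 to 0.780) in sh-NC, and 3.12% (2.56 to 3.75) and 2.90% (2.44 to 3.43) in sh-B7-H3 (1). The means were 0.479% ± 0.116 and 3.01% ± 0.151 (SD, n = 2 each), a 6.27-fold difference, and the groups did not overlap (exact permutation p = 0.333, two-sided, the smallest that 2 against 2 libraries can give). These intervals cover counting error only. Among CD4 cells the shares were 2.13% ± 0.535 and 14.8% ± 0.583 (SD, n = 2), a 6.94-fold difference. The rule counts UMIs, so depth sets part of the share, and when every cell was thinned to 3000 UMIs the shares of kept cells were 0.601% and 5.79%. Free RNA moved in the same direction, with Nkg7 at 538 and 557 CPM in barcodes of at most 100 UMIs in sh-NC and 1389 and 1381 CPM in sh-B7-H3 (1), and its part in the share was not tested.

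The share of the Nkg7-high CD4 cells that lacked Gzmk changed far less than the number of such cells. It was 21.4% and 22.7% in sh-NC and 27.3% and 26.9% in sh-B7-H3 (1), a ratio of 1.23 with means 22.1% ± 0.918 and 27.1% ± 0.329 (SD, n = 2, exact permutation p = 0.333). With every cell thinned to 3000 UMIs before the rule, the mean shares were 31.6% in sh-NC and 46.9% in sh-B7-H3 (1), a ratio of 1.48. Gzmk itself was lower in the Gzmk-positive cells of the knockdown tumors, with a median of 4 and 3 UMIs per cell in sh-NC and 2 and 2 UMIs in sh-B7-H3 (1). At these depths 0 Gzmk UMIs is not the absence of Gzmk RNA.

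**Figure D1:**
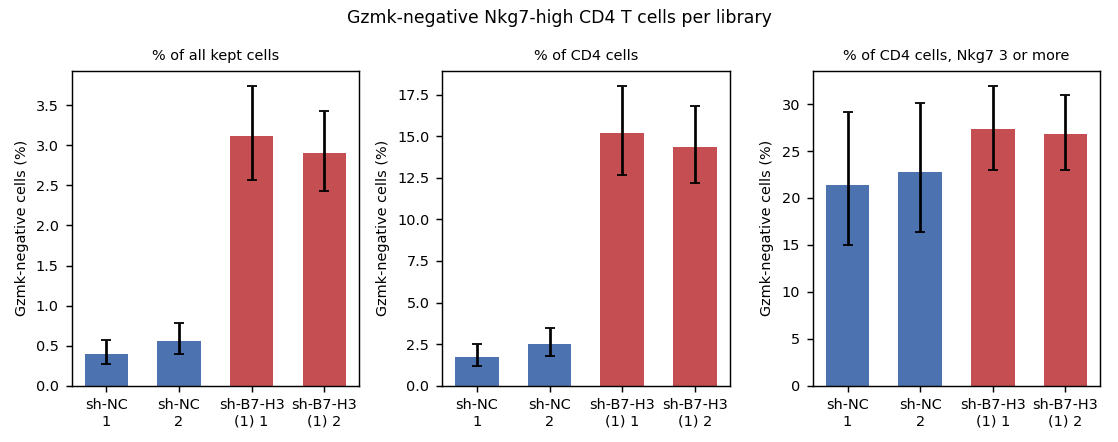
Gzmk-negative Nkg7-high CD4 T cells as a percent of all kept cells (left), of CD4 cells (middle) and of CD4 cells with 3 or more Nkg7 UMIs (right), 1 bar per library with exact 95% binomial intervals. The 2 sh-B7-H3 (1) bars stand at 3.12% and 2.90% of kept cells, above both sh-NC bars, while the bars on the right lie between 21.4% and 27.3%.

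The cells near the limits of the rule differed from those well inside it. Ccl5, a chemokine that recruits T cells and macrophages, stood in the 5 to 12 cells per library with 3 to 5 Nkg7 UMIs at 2649 and 370 CPM in sh-NC and 402 and 1480 CPM in sh-B7-H3 (1). In the cells with more than 5 Nkg7 UMIs it stood at 5271, 5223, 11354 and 11202 CPM in the same order of libraries. Just outside, in cells with 2 Nkg7 UMIs and no Gzmk, it stood at 46.3 to 523 CPM, and in Nkg7-high cells with a single Gzmk UMI at 13834 to 23254 CPM. Ccl5 was therefore highest on the Gzmk-positive side of the limit in every library.

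Against CD4 cells with no UMI of Nkg7 or Gzmk (3056 Nkg7-zero cells) the Gzmk-negative cells stood far apart. This comparison used the library as a block. Of 7331 genes tested, 1127 passed an adjusted p under 0.05 (edgeR quasi-likelihood test, Benjamini-Hochberg) with at least a 2-fold difference, which is 15.4% of the genes, 636 of them higher (8.68%) and 491 lower (6.70%). The library-wise sum over a set of cells cannot tell fewer expressing cells from less RNA per cell.

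Chemokine ligands had the widest median log2 difference among the 16 lists, 7.09 against -0.01 over all genes, with 5 of 6 tested higher and none lower. The median includes Ccl1 and Xcl1, which were read largely from single cells. Ccl4, an inflammatory chemokine gene, stood at 379 and 5913 CPM in sh-NC and 3705 and 3048 CPM in sh-B7-H3 (1), and at 5.16 to 35.7 CPM in Nkg7-zero cells, a log2 difference of 6.72 ± 0.63 (SE, adjusted p = 1.51e-06, edgeR). The sh-NC libraries lay on both sides of the knockdown libraries for Ccl4. Ccl3, its close relative, stood at 150, 2285, 2477 and 2183 CPM against 2.17 to 19.5 CPM (log2 difference 7.45 ± 0.41). Ifng, the gene of the main activating cytokine of macrophages, stood at 294, 658, 646 and 277 CPM against 2.17 to 6.96 CPM, and it led a cytokine list of which 4 of 5 tested genes were higher.

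All 18 tested effector transcription factors were higher than in Nkg7-zero cells, with a median log2 difference of 2.92. Eomes, a T-box factor of effector and memory cells, stood at 32.0, 68.4, 124 and 121 CPM against 1.46 to 2.02 CPM. Tox, a factor tied to chronic stimulation, stood at 171, 278, 499 and 417 CPM against 57.5 to 68.9 CPM. Inhibitory receptors and ectoenzymes followed the same direction in 9 of 11 tested genes, with Btla lower. Lag3, an inhibitory receptor that binds MHC class II, stood at 235, 380, 611 and 617 CPM against 1.98 to 9.22 CPM (log2 difference 6.54 ± 0.19, adjusted p = 1.72e-11, edgeR). It did not overlap in any library, which the rule for naming genes, given with the processing, required. Pdcd1, which encodes PD-1, stood at 443, 369, 397 and 446 CPM against 6.96 to 16.8 CPM.

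Cytotoxic granule genes were higher in 8 of 12 tested. Fasl, the death ligand of the Fas receptor, stood at 96.1, 103, 112 and 102 CPM against 6.70 to 7.91 CPM, and these values hardly differed among the libraries. Prf1, which encodes perforin, stood at 5.34, 68.4, 100 and 102 CPM against 18.2 to 26.0 CPM, so that sh-NC library 1 lay below the Nkg7-zero cells. Gzmb, the granzyme best known from killer cells, was read from 3 to 9 cells per library, at 176, 45.6, 17.1 and 17.5 CPM against 2.02 to 6.70 CPM. Its groups did not overlap the Nkg7-zero cells, but those in sh-B7-H3 (1) lay well below sh-NC.

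Resting genes moved the other way. All 14 tested resting and homing genes were lower than in Nkg7-zero cells, with a median log2 difference of -3.03. Satb1, a chromatin organizer of resting T cells, stood at 21.4, 38.0, 21.1 and 19.7 CPM against 257 to 307 CPM (log2 difference -3.93 ± 0.15, adjusted p = 3.88e-10, edgeR). Klf2, which keeps the egress receptor gene S1pr1 on, was far less reduced in sh-NC, at 331 and 289 CPM, than in sh-B7-H3 (1), at 40.8 and 81.1 CPM, and stood at 337 to 425 CPM in Nkg7-zero cells. In the S100, galectin and annexin list 9 of 11 tested genes were higher.

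The surface tags gave a parallel picture. Of 197 tags, 17 differed between Gzmk-negative and Nkg7-zero CD4 cells by the same test and limits (8.63%), 16 higher (8.12%) and 1 lower (0.508%). The median CD38 tag count per cell was 320.5 and 296 UMIs in sh-NC and 572 and 398 UMIs in sh-B7-H3 (1), against 7 to 20 UMIs in Nkg7-zero cells (log2 difference of summed tags 3.77 ± 0.08, adjusted p = 1.12e-05, edgeR). The median CD39 count was 77.5, 111, 392 and 253 UMIs against 15 to 29 UMIs (3.04 ± 0.10). No library of the Gzmk-negative cells overlapped the Nkg7-zero cells for either tag.

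PD-1 was also high on the surface, at a median of 67, 57, 47 and 35 UMIs against 6 to 10 UMIs. The other tags higher on Gzmk-negative cells included CD200R, an inhibitory receptor, CD54, the adhesion molecule ICAM-1, CD86, GITR, TIGIT, CD24 and CD4. The CD4 tag was part of no rule, and its median was 8.5, 13, 21 and 14 UMIs against 4 to 7 UMIs, with the call lost without sh-NC library 2 and without sh-B7-H3 (1) library 2. CD127, the IL-7 receptor chain, was the tag that was lower, at 24.5, 17, 19 and 14.5 UMIs against 29 to 55 UMIs. For 2 of the label markers the tag showed little of what the RNA showed. CD122, the protein of Il2rb, had medians of 8, 7, 8 and 6 UMIs against 5 to 7 UMIs and was not called, while Il2rb RNA stood at 497, 494, 1113 and 925 CPM against 18.6 to 39.6 CPM. The CXCR6 tag had medians of 8, 9, 17 and 11 UMIs against 6 to 9 UMIs and was not called either, while Cxcr6 RNA, which encodes a receptor of tissue-resident T cells, stood at 833, 867, 1245 and 1195 CPM against 9.37 to 30.3 CPM.

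**Figure D2:**
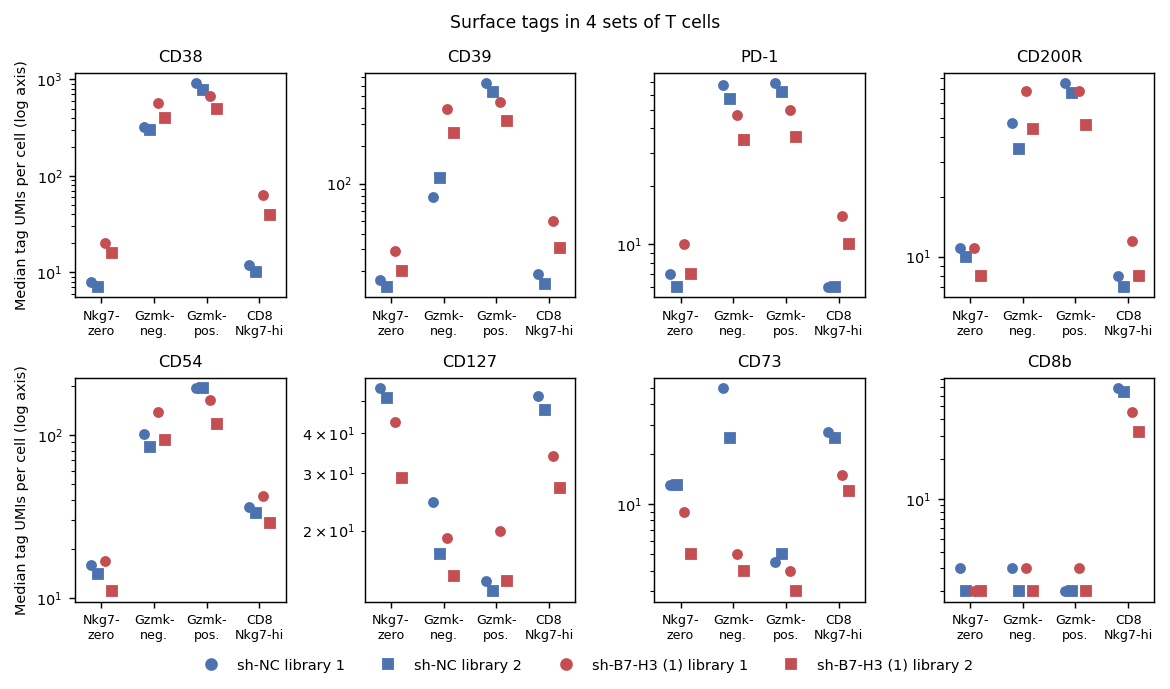
Median tag UMIs per cell (log axis) for 8 surface tags in Nkg7-zero CD4 cells, Gzmk-negative cells, Gzmk-positive cells and Nkg7-high CD8 cells, 1 point per library. CD38, CD39, PD-1, CD200R and CD54 were higher on Gzmk-negative than on Nkg7-zero cells in all 4 libraries, and the sh-NC points for CD39, 77.5 and 111 UMIs, lie below those of Gzmk-positive cells, 625 and 532 UMIs.

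Nkg7-high CD8 cells without Gzmk (5357 cells with a Cd8a or Cd8b1 UMI and no Cd4 UMI) shared the Nkg7 rule and served as a second comparison. Of 9089 genes tested against them, 1087 were called (12.0%), 597 higher (6.57%) and 490 lower (5.39%) in the CD4 cells. Penk, which encodes an enkephalin precursor, stood at 497, 270, 42.2 and 123 CPM in Gzmk-negative CD4 cells and at 0.21 to 3.57 CPM in the CD8 cells (log2 difference 6.83 ± 0.67). Tnfrsf4, which encodes the costimulatory receptor OX40, stood at 454, 414, 158 and 137 CPM against 4.38 to 11.2 CPM (4.72 ± 0.43), and Maf, a factor of helper T cells, at 326, 240, 129 and 147 CPM against 2.40 to 13.3 CPM (4.57 ± 0.47). All 3 were higher in sh-NC than in the knockdown libraries. They did not overlap the CD8 cells, and the naming rule required them to be apart in each library.

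Of the lists, 14 of 19 effector transcription factors and 9 of 12 inhibitory receptors and ectoenzymes were higher in the Gzmk-negative CD4 cells, and 13 of 14 resting and homing genes were lower. Of the cytotoxic granule genes, 2 of 14 were higher, Fasl and Srgn, and none lower, a share near that of all genes tested. Many CD8 cells that passed the Nkg7 rule had low levels, with Nkg7 at 717 to 1695 CPM there against 2355 to 5066 CPM in the Gzmk-negative CD4 cells. Free Nkg7 RNA, at 538 to 1389 CPM, was close to the CD8 level, and its part in which CD8 cells passed was not tested. Of the tags, 15 of 197 were called (7.61%), with CD4, CD38, CD39, CD200R and GITR among the 10 higher (5.08%) and CD8b, CD26 and Ly-6C among the 5 lower (2.54%).

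The nearest population was the Gzmk-positive cells, the 884 Nkg7-high CD4 cells with at least 1 Gzmk UMI. Only 33 of 6624 genes were called between the sets (0.498%), 32 higher (0.483%) and 1 lower (0.0151%) in Gzmk-negative cells, and 644 had an unadjusted p under 0.05. None of the 197 tags was called (0.00%) by edgeR, 28 had an unadjusted p under 0.05, and DESeq2 called 1. The number of genes depended on single libraries, with 16 called without sh-NC library 2 and 65 without sh-B7-H3 (1) library 1. Gzmk itself divides the sets, so a gene that varies with Gzmk from cell to cell also differs between them, which the test does not set apart.

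Ccl5 was the gene that was lower. It stood at 4854 and 4476 CPM in the Gzmk-negative cells of sh-NC and 10564 and 10489 CPM in those of sh-B7-H3 (1), and at 23207, 24766, 17736 and 17088 CPM in Gzmk-positive cells (log2 difference -1.54 ± 0.24, adjusted p = 0.00499, edgeR). The sets did not overlap in any library, which the naming rule required, and the gap was wider in sh-NC. Without sh-NC library 2 the call was lost.

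Of the 10 genes named as higher, Klf2 and Il7r are on the resting and homing list, of which 5 of 12 tested genes were called higher (Id3, Il7r, Klf2, S1pr1 and Tcf7) with a median log2 difference of 1.09 against 0.01 over all genes. Cd226, an activating adhesion receptor of NK and T cells, stood at 198, 156, 44.8 and 51.5 CPM in Gzmk-negative and 5.31, 11.7, 10.8 and 13.2 CPM in Gzmk-positive cells (log2 difference 2.83 ± 0.35, adjusted p = 0.000694, edgeR). Il7r stood at 155, 171, 38.2 and 75.6 CPM against 25.2, 30.5, 20.1 and 14.0 CPM (2.09 ± 0.24), and Cxcr3, a receptor of interferon-induced chemokines, at 235, 137, 36.9 and 51.5 CPM against 41.2, 35.2, 18.6 and 14.0 CPM (1.83 ± 0.22). For all 3, every library was higher in the Gzmk-negative cells, which the naming rule required. Klf2 was higher by 2.23 ± 0.33, but its call and those of S1pr1, Tcf7 and Id3 were lost without sh-NC library 2. The calls of S1pr1, Tcf7 and Id3 were lost without sh-B7-H3 (1) library 2 as well, and that of Id3 without each library in turn. No call fell among 13 cytotoxic granule genes, 18 effector transcription factors and 10 inhibitory receptors and ectoenzymes by edgeR, which at 0.498% of all genes called says nothing particular about these lists.

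Xcl1 and Ccl1, which encode chemokines that attract cross-presenting dendritic cells and CCR8-bearing T cells, had the widest differences from Gzmk-positive cells, but the reads came from few cells. Xcl1 stood at 1661 and 1050 CPM in Gzmk-negative cells of sh-NC and 36.9 and 280 CPM in those of sh-B7-H3 (1), against 9.30 to 40.1 CPM in Gzmk-positive cells, a range that holds the value of sh-B7-H3 (1) library 1 (log2 difference 3.84 ± 0.59, adjusted p = 0.00489, edgeR). It was seen in 7, 9, 7 and 14 cells, and a single cell held 50.8%, 80.8%, 64.3% and 65.5% of the UMIs. Ccl1 stood at 2477, 1160, 29.0 and 542 CPM against 0 to 7.35 CPM, was seen in 4 to 6 cells per library, and a single cell held 70.7% to 88.2% of its UMIs. The call of Xcl1 was lost without sh-NC library 2. Both differences rest on a handful of cells.

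The promoters of these genes are shown because both transcripts were high in the same libraries. GGAAA, the core letters of NFAT sites, was searched on both strands in the 250 bases before the start of each gene (RefSeq, GRCm38.p6), and 55.6% of 32851 promoters hold it there. The stretch around the match nearest the start is printed in lower case, on the strand of the gene, with the match in capitals. Both genes lie on the minus strand, Xcl1 at chr1:164935605-164935634 with the match 100 bases before the start, and Ccl1 at chr11:82179846-82179875 with the match 51 bases before the start and 3 matches in all. The letters occur in most promoters and mark no binding site.
Xcl1: cattgcaaagacTTTCCgtgattccacacc
Ccl1: ctccatggtctgGGAAAgcaccccgggcct

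**Figure D3:**
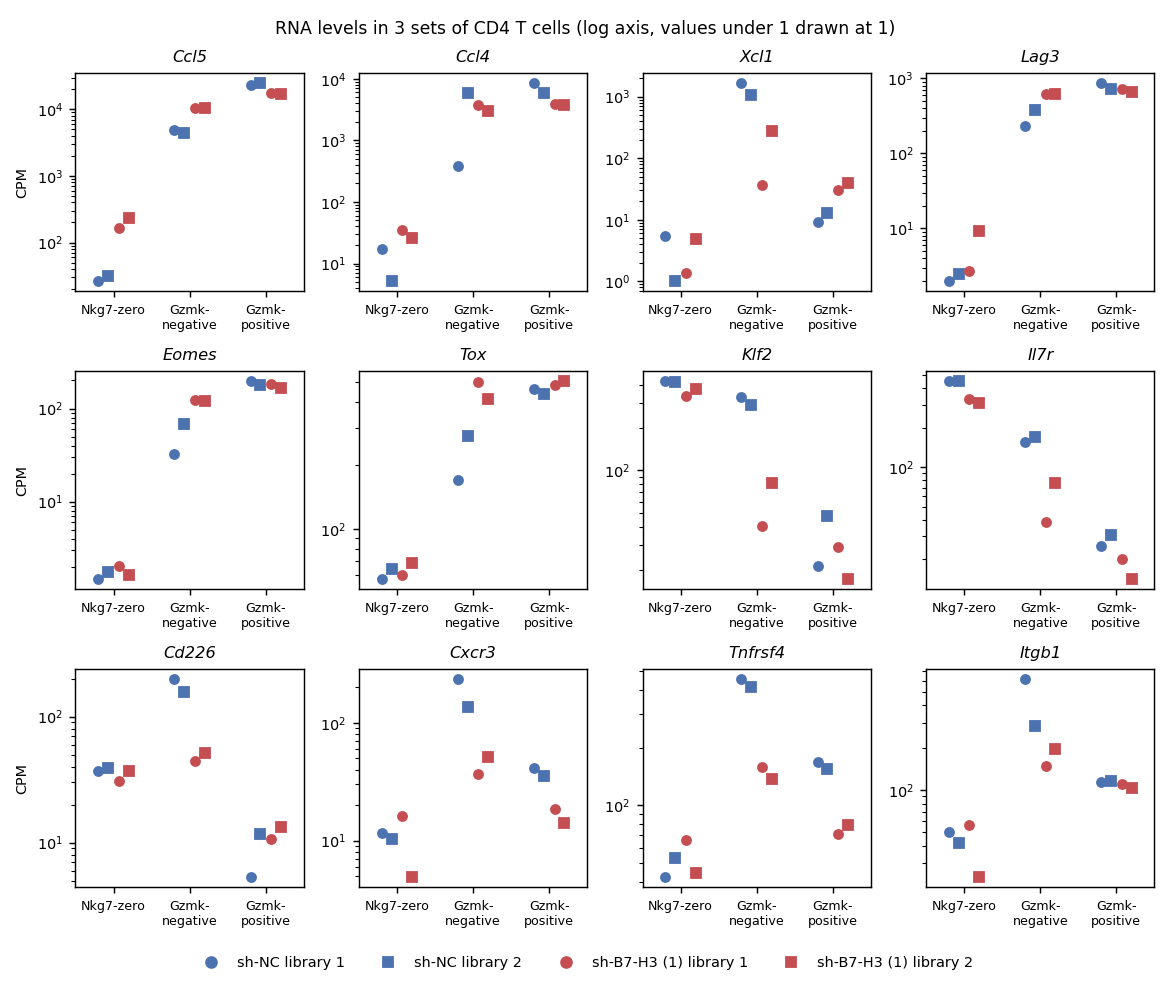
RNA levels (CPM, log axis) of 12 genes in Nkg7-zero, Gzmk-negative and Gzmk-positive CD4 cells, 1 point per library, circles for library 1 and squares for library 2. Klf2, Il7r, Cd226, Cxcr3, Tnfrsf4 and Itgb1 were higher in the sh-NC points of Gzmk-negative cells than in the sh-B7-H3 (1) points, while Ccl5, Lag3, Eomes and Tox were lower.

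Within the Gzmk-negative cells the hairpin groups were compared next, to see which genes differed between cells from control and from B7-H3 knockdown tumors. Of 5583 genes tested, 127 were called (2.27%), 54 higher (0.967%) and 73 lower (1.31%) in sh-B7-H3 (1), and the median of all genes was 0.01 on the log2 scale. DESeq2 called 41. Where a library was left out of this comparison, its group kept a single library and the spread came from the other group. Calls held or lost in such fits are descriptions. The sh-NC sums rest on 30 and 35 cells, against 109 and 134 cells in sh-B7-H3 (1). The control cells also lay nearer the limit of the rule, with a median Nkg7 of 10.5 and 11 UMIs in sh-NC and 35 and 30.5 UMIs in sh-B7-H3 (1). Cells with 3 to 9 Nkg7 UMIs were 15 of 30 and 13 of 35 in sh-NC and 19 of 109 and 21 of 134 in sh-B7-H3 (1), and the part of this mix in the differences between the hairpin groups was not tested. Measures of quality separated the groups in the same cells, with a median mitochondrial share of 2.43% and 2.43% in sh-NC and 3.22% and 3.25% in sh-B7-H3 (1), and with isotype controls at 0.237% and 0.233% against 0.322% and 0.353% of the tag UMIs. Nkg7-zero cells moved alike, at 3.54% and 3.47% against 4.15% and 4.11% mitochondrial and 0.315% and 0.306% against 0.486% and 0.525% isotype UMIs, and the part of these measures in the differences was not tested.

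Ccl5 was higher in the knockdown libraries by 1.30 ± 0.12 on the log2 scale (SE, n = 2 per group, adjusted p = 7.73e-06, edgeR), with both above both sh-NC libraries. It was detected in 18 of 30 and 24 of 35 cells of sh-NC and in 105 of 109 and 129 of 134 cells of sh-B7-H3 (1). Ccl5 in free RNA moved in the same direction, at 1212 and 1417 CPM in sh-NC and 4279 and 4741 CPM in sh-B7-H3 (1), and so did the Nkg7-zero cells, at 26.2 and 31.1 against 167 and 235 CPM. The part of free RNA in the difference was not tested, nor was that of cells with Gzmk RNA that gave no Gzmk UMI. When every cell was thinned to 3000 UMIs and the rule applied again, it took 40 and 41 cells in sh-NC and 178 and 256 in sh-B7-H3 (1). In these cells, which are not the same set, the log2 difference of Ccl5 was 0.22 and the call was lost. Ccl4 and Ccl3 were not called, with log2 differences of 0.17 ± 0.59 and 0.99 ± 0.55.

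Il2rb, which encodes the receptor chain for IL-2 and IL-15, was higher by 1.16 ± 0.15 (adjusted p = 0.000313, edgeR), and its 4 values, given above, separated the groups. Lag3 was higher by 1.08 ± 0.18 and Cd244a, which encodes the receptor 2B4, by 1.70 ± 0.37, and they were the called members of 12 tested inhibitory receptors and ectoenzymes. Eomes was higher by 1.31 ± 0.29, Tox by 1.101 ± 0.194 and Ikzf2, which encodes Helios, by 1.27 ± 0.22, and they were the called members of 18 tested effector transcription factors. Maf was lower by 0.88 ± 0.17 on the log2 scale, under the 2-fold limit. Cxcr6 was higher by 0.64 ± 0.14, also under that limit. Without sh-NC library 1, Cd244a, Eomes, Ikzf2, Lag3 and Tox lost their calls, with the direction kept.

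Other genes were higher in the knockdown cells as well. Spp1, which encodes osteopontin, stood at 144 and 72.2 CPM in sh-NC and 527 and 327 CPM in sh-B7-H3 (1) (log2 difference 2.16 ± 0.28, adjusted p = 0.00025, edgeR). Gsta4, a glutathione transferase, stood at 48.1, 49.4, 209 and 166 CPM (2.04 ± 0.26), and it was seen in 3 and 4 cells of sh-NC and 51 and 51 cells of sh-B7-H3 (1). Glp1r, the receptor of the gut hormone GLP-1, stood at 10.7, 30.4, 94.9 and 62.5 CPM (1.91 ± 0.45). Chn2 was higher by 2.14 ± 0.30, and Trat1, an adaptor of the T cell receptor complex, by 1.88 ± 0.25. All 5 separated the groups in their library values, which the naming rule required. The call of Glp1r was lost without sh-B7-H3 (1) library 1.

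Apoe and Cd74, genes of macrophages and antigen-presenting cells, were called higher by 3.47 ± 0.78 and 2.43 ± 0.53. Apoe stood at 10.7, 11.4, 52.7 and 172 CPM in the cells and at 177, 211, 659 and 563 CPM in free RNA. The 9 myeloid markers summed to 58.7 and 34.2 CPM in sh-NC and 158 and 502 CPM in sh-B7-H3 (1), with Itgam at 0 in every library. Apoe turned to -0.64, with no call, when cells with at least 2 Nkg7 UMIs were taken. The call of each gene was lost without sh-B7-H3 (1) library 2, and the part of free RNA or of myeloid cells was not tested. Gm42418 and AY036118, which overlap ribosomal RNA sequence and whose counts are uncertain, and Lars2 were also called. Gm42418 stood at 6674, 5084, 28346 and 28727 CPM in the Gzmk-negative cells and at 5104, 4947, 31294 and 30638 CPM in Nkg7-zero cells, so its difference was as large outside the selected cells.

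The genes lower in the knockdown cells included costimulatory receptors, helper ligands and a few resting genes. In the costimulatory receptors and helper ligands, 7 of 11 tested were lower and none higher, with a median of -1.43 on the log2 scale. Cd40lg, the ligand by which helper cells license dendritic cells and B cells, stood at 53.4 and 122 CPM in sh-NC and 11.9 and 24.1 CPM in sh-B7-H3 (1) (log2 difference -2.19 ± 0.44, adjusted p = 0.00903, edgeR). Tnfrsf4 was lower by 1.43 on the log2 scale (SE 0.15, adjusted p = 2.8e-05, edgeR) and Cd226 by 1.72 (SE 0.24). The groups did not overlap for these genes, which for Cd40lg the naming rule required. The others were Cd28, Slamf7, Tnfsf8 and Tnfsf11, which encodes RANK ligand. Cd28 lost its call without sh-NC library 1 and without sh-B7-H3 (1) library 1, and Slamf7 without either library of sh-B7-H3 (1).

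Klf2 was lower by 2.17 on the log2 scale (SE 0.24, adjusted p = 5.32e-05, edgeR), and with Il7r, Lef1 and Tcf7 it made up the 4 called of 13 resting and homing genes, whose median was -1.23. The cells chosen before thinning were also compared at an equal depth of 3000 UMIs. Klf2 was detected in 33.9% ± 7.6 of those of sh-NC and 10.1% ± 8.9 of those of sh-B7-H3 (1) (SD, n = 2, exact permutation p = 0.333). In Nkg7-zero cells it was detected in 62.4% and 59.1%. Cxcr3 was lower by 1.87 (SE 0.27), and Il7r by 1.37 (SE 0.29), on the log2 scale. The adhesion genes Itgb1, Itgb7 and Cd69 were lower as well. Ly6a, which encodes Sca-1 and belongs to a family of near-identical genes, stood at 1143, 502, 175 and 175 CPM. Without sh-B7-H3 (1) library 1 the calls of Il7r, Itgb1 and Cd69 were lost, without sh-NC library 1 that of Itgb1, without sh-NC library 2 those of Cd40lg, Lef1, Tcf7 and Cd69, and without sh-B7-H3 (1) library 2 those of Lef1 and Tcf7.

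Xcl1 was lower by 2.91 on the log2 scale (SE 0.44, adjusted p = 0.00104, edgeR) and Ccl1 by 2.49 (SE 0.61, adjusted p = 0.0297), with the few cells described above behind both. Gzmb was lower by 2.42 (SE 0.48), from 5 and 3 cells of sh-NC and 9 and 9 cells of sh-B7-H3 (1), and its call was lost without sh-NC library 1. Ly6c2 was lower by 2.48 (SE 0.48), with 55.6% and 78.3% of its sh-NC UMIs in a single cell. Rgcc, Penk and Ms4a4c completed the genes named as lower. By DESeq2, 22 of the 47 named genes lost their calls with the direction kept, namely Cd244a, Eomes, Glp1r, Cd28, Slamf7, Tnfsf8, Il7r, Lef1, Tcf7, Itgb7, Cd69, Ly6c2, Penk, Ccl1, Xcl1, Anxa1, Crtam, Cx3cr1, Egr1, Jun, Lta and Serpinb6b. In the cells that the rule took after thinning to 3000 UMIs, 28 lost their calls with the direction kept and 15 held them. Those lost there but called by DESeq2 were Ccl5, Il2rb, Lag3, Tox, Ikzf2, Chn2, Trat1, Cd74, Cd226, Cd40lg, Tnfsf11, Cxcr3 and Itgb1, and those that held in both included Klf2, Tnfrsf4, Spp1, Gsta4, Gzmb, Ly6a and Rgcc. Pdcd1, Fasl, Ifng and Prf1 were not called, with log2 differences of 0.19 ± 0.15, 0.21 ± 0.23, 0.01 ± 0.32 and 1.38 ± 0.42.

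On the surface, 12 of 197 tags were called between the hairpin groups (6.09%), 1 higher (0.508%) and 11 lower (5.58%), and 53 without a limit on fold. The median CD73 tag, an enzyme that makes adenosine, was 50 and 25 UMIs in sh-NC and 5 and 4 UMIs in sh-B7-H3 (1) (log2 difference -1.67 ± 0.17, adjusted p = 0.00776, edgeR). In Gzmk-positive cells it was 4.5, 5, 4 and 3 UMIs, so the sh-NC Gzmk-negative cells stood above every other CD4 value, Nkg7-zero cells at 5 to 13 UMIs included. Ly-6C was lower by 1.70 and CD45 by 1.07 on the log2 scale, but the medians of these tags moved alike in Nkg7-zero cells, with Ly-6C at 62 and 54 against 21 and 20 UMIs and CD45 at 63 and 58 against 28 and 19 UMIs. The remaining lower tags that are named were Ly-6A/E, CD2, ICOS, CD102, CXCR4, CD26 and CD1d. CD26 also had lower medians in the knockdown libraries in other cells, at 151 and 139 against 86 and 66.5 UMIs in Nkg7-high CD8 cells and 70 and 66 against 48 and 33 UMIs in Nkg7-zero cells, beside 28 and 29 against 21 and 15 UMIs in Gzmk-negative cells. The total tag count per cell also differed, with medians of 5884 and 6423 UMIs in the Gzmk-negative cells of sh-NC and 5357 and 3813 UMIs in those of sh-B7-H3 (1). CCR8 was higher, from a median of 1 to 2 UMIs per cell in every set. Some tags did not follow the RNA of their genes. The OX40 tag, of Tnfrsf4, stood at -0.08 on the log2 scale (adjusted p = 0.558, edgeR). CXCR3 stood at 0.23 (adjusted p = 0.196, edgeR) and CD122, of Il2rb, at -0.13 (adjusted p = 0.255, edgeR). None of these was called. CD127, of Il7r, stood at -0.59 (adjusted p = 0.0294, edgeR), under the 2-fold limit, and Ly-6A/E was called lower, each in the direction of its RNA. No tag was called without either of the sh-B7-H3 (1) libraries, when the remaining knockdown library was assumed to vary like the control libraries, with 0 called in both cases.

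The share of cells past a tag threshold was higher in the knockdown libraries for CD38, CD39 and PD-1. The threshold was the 95th percentile of Nkg7-zero cells of the same library. CD38 passed on 63.3% and 74.3% of Gzmk-negative cells in sh-NC and 89.0% and 86.6% in sh-B7-H3 (1), and CD39 on 53.3%, 65.7%, 86.2% and 85.1%. PD-1 passed on 66.7%, 68.6%, 84.4% and 85.8%. The groups did not overlap for these 3 tags, and the exact permutation test over libraries can give no p below 0.333. For PD-1 the tag level went the other way, with the summed tag lower in the knockdown libraries by 0.56 on the log2 scale (SE 0.14, adjusted p = 0.0429, edgeR), under the 2-fold limit. At the 99th percentile PD-1 passed on 35.8% and 45.5% of the cells in sh-B7-H3 (1), which lay between the sh-NC libraries, at 22.9% in library 2 and higher than both in library 1, and the difference of the means was 4.22 percentage points.

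Cells past the thresholds of both CD38 and CD39 made up part of the Gzmk-negative cells. The split was made after the data had been seen and is given as a description. They were 14 of 30 and 21 of 35 cells in sh-NC (46.7% and 60.0%) and 91 of 109 and 108 of 134 cells in sh-B7-H3 (1) (83.5% and 80.6%). Their median Nkg7 was 14.5, 29, 41 and 34.5 UMIs, against 8, 8, 5 and 7 UMIs in the cells not positive for both, which thus lay nearer the limit of the rule. The rise was not particular to Gzmk-negative cells. Nkg7-high CD8 cells passed both thresholds in 5.00% and 5.11% of cells in sh-NC and 36.8% and 33.4% in sh-B7-H3 (1). Gzmk-positive cells did so in 97.3%, 99.2%, 97.6% and 98.6% in the same order of libraries.

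Some genes were at higher levels in the double-positive cells, given here as single genes with no test. Lag3 stood at 437, 596, 704 and 712 CPM in them and 68.2, 20.3, 55.5 and 150 CPM in the others, and Eomes at 70.8, 103, 143 and 141 CPM against 0, 10.1, 9.26 and 19.5 CPM. Cxcr6 stood at 1287, 1161, 1366 and 1342 CPM against 458, 376, 518 and 469 CPM, and Il2rb at 720, 596, 1237 and 1059 CPM against 312, 325, 370 and 267 CPM. In every library the double-positive cells were higher, and double-positive Gzmk-positive cells stood at 673 to 886 CPM for Lag3 and 1088 to 1261 CPM for Cxcr6.

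S1pr1, Il7r, Klf2 and Itgb7 were at higher levels in the cells not positive for both tags, a comparison of single genes with no test. S1pr1 stood at 156 and 122 CPM in sh-NC and 139 and 111 CPM in sh-B7-H3 (1), against 9.23 to 24.3 CPM in double-positive cells. Il7r stood at 263, 345, 185 and 286 CPM against 13.8 to 66.9 CPM, Itgb7 at 185, 264, 194 and 208 CPM against 10.5 to 70.8 CPM, and Klf2 at 585, 639, 130 and 358 CPM against 23.6 to 79.1 CPM. Tcf7 and Cxcr3 followed the same pattern, and the fractions were apart in these 6 genes in every library.

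Some differences between the hairpin groups were also seen among the double-positive cells alone, where 87 genes were called (35 higher and 52 lower). Of the named or listed genes tested there, 21 held their calls, 17 lost them with the direction kept and 1 turned sign. Those that lost them included Eomes, Cd244a, Glp1r, Lef1 and Itgb7. Ccl5 was higher there by 1.38 on the log2 scale (adjusted p = 9.12e-06, edgeR), Spp1 by 1.81 and Gsta4 by 2.12, and Tnfrsf4 was lower by 3.08, Cd226 by 2.25 and Ly6a by 3.32. Tnfrsf4 stood in those cells at 744 and 553 CPM in sh-NC and 46.1 and 83.1 CPM in sh-B7-H3 (1). In contrast, Klf2 (log2 difference -1.06, adjusted p = 0.379), Il7r (-0.94, adjusted p = 0.529), Cxcr3 (-1.66, adjusted p = 0.125) and Lag3 (0.57, adjusted p = 0.0978) were not called there by edgeR. Over all Gzmk-negative cells the log2 differences were -2.17 for Klf2, -1.37 for Il7r, -1.87 for Cxcr3 and 1.08 for Lag3, so those of Klf2, Il7r and Lag3 were smaller in the double-positive cells and that of Cxcr3 was close. Itgb1 stood at -0.33 and Cd69 at 0.019 in the double-positive cells, against -1.19 and -1.17 over all Gzmk-negative cells, and neither was called there. Only 14 and 21 cells of sh-NC entered this comparison. The doublet caller scored 35.7% and 19.0% of them, against 14.3% and 20.4% of the double-positive cells of sh-B7-H3 (1).

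**Figure D4:**
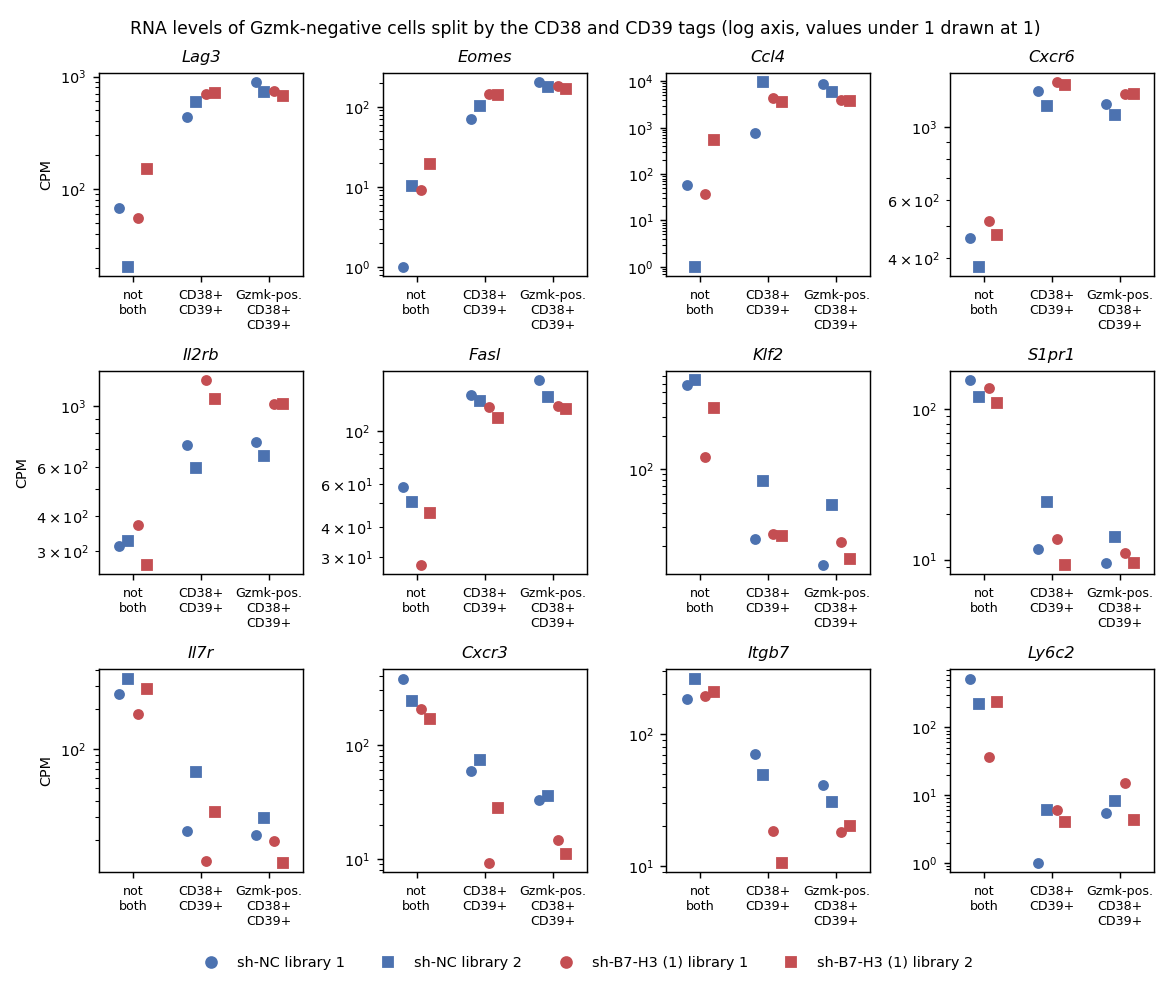
RNA levels (CPM, log axis) of 12 genes in Gzmk-negative cells not positive for both CD38 and CD39, in those positive for both, and in Gzmk-positive cells positive for both, 1 point per library. Lag3, Eomes, Ccl4, Cxcr6, Il2rb and Fasl were higher in the double-positive cells and Klf2, S1pr1, Il7r, Cxcr3, Itgb7 and Ly6c2 in the others, in all 4 libraries.

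Whether the hairpin groups differed more in Gzmk-negative cells than in other CD4 cells was tested with an interaction term. Against Nkg7-zero cells, 67 of 8330 genes differed in their response (0.804%), 15 higher (0.180%) and 52 lower (0.624%) in Gzmk-negative cells, and against Gzmk-positive cells 49 of 7399 did (0.662%), 24 higher (0.324%) and 25 lower (0.338%). Ccl5 was higher in the knockdown than the control libraries in Gzmk-negative cells and lower in Gzmk-positive cells, whose levels are given above (interaction 1.68 ± 0.07 on the log2 scale, adjusted p = 1.44e-15, edgeR). Against Nkg7-zero cells its interaction had the opposite sign, -1.59 ± 0.16 (adjusted p = 1.24e-05, edgeR), since Ccl5 was higher in the knockdown libraries in both sets and by more in Nkg7-zero cells. Gzmk UMIs divide the Gzmk-negative from the Gzmk-positive cells. The median Gzmk of Gzmk-positive cells was 4 and 3 UMIs in sh-NC and 2 and 2 UMIs in sh-B7-H3 (1). The part of this shift in the Ccl5 interaction was not tested. For Klf2 the knockdown difference was wider than in Nkg7-zero cells by -2.03 on the log2 scale, with 425 and 420 CPM in sh-NC and 337 and 375 CPM in sh-B7-H3 (1) there. DESeq2 called 31 and 7 genes in these comparisons. Against Nkg7-zero cells edgeR called 124 genes without sh-NC library 1, 208 without sh-NC library 2 and 40 without sh-B7-H3 (1) library 1, and against Gzmk-positive cells 21, 130, 27 and 31 genes without each library in the order used above.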

How the data were processed

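RNA and 197 named surface tags were measured in CD3+ cells of 4 libraries, 2 per hairpin group. The authors deposited counts, as UMIs per gene or tag and barcode, which they made with Cell Ranger on mm10, and these deposited counts were used as they stand. The 197 tags include 9 isotype controls, none of which was called in any comparison. Cells were chosen by the RNA rule given in the report. Cells, gene lists and comparisons were chosen with earlier results of these data known. Counts were summed per library and cell set, and sums were tested with the edgeR quasi-likelihood test (edgeR 4.0.16, R 4.3.3; TMM factors, filterByExpr, Benjamini-Hochberg), with the library as a block between cell sets and an interaction term between sets and hairpins. A gene was called at an adjusted p under 0.05 and a fold of at least 2, the interaction at the adjusted p alone. DESeq2 1.42.0, other cell limits, thinning, a doublet filter, other filters and leaving out each library were alternatives. Thinned fits applied the rule again to the thinned counts, while detection at equal depth kept the cells chosen before thinning. Named genes were the 10 highest and 10 lowest called genes per comparison with a mean of at least 50 CPM, besides members of the 16 lists. Mitochondrial, ribosomal, receptor segment and rule genes were left out. Hairpin and cell set comparisons of RNA also required one direction over the libraries, so the separation of genes named there was fixed by the rule. Interactions had no such requirement, and named tags had neither it nor the CPM limit. Genes of the report outside that rule were chosen after their values were seen. Simulated counts were drawn with the same dispersion for all genes, which was set and not estimated from these sums. Only genes above a limit on expected counts were changed. The numbers called therefore do not carry over to genes read largely from single cells. A simulated gene counted as called at the adjusted p alone, with no fold limit. For the hairpin comparison (5621 genes), 56 of 100 genes changed by 1 log2 unit were called. So were 100 of 100 changed by 2 log2 units and 5 of 5421 unchanged genes. For the interaction with Nkg7-zero cells (7742 genes) these were 15 of 100, 90 of 100, and 2 of 7542. The CPM unit was computed here from the deposited counts. The study's methods describe 1 pool of tumors per group and its legends 2 independent samples made from them, so whether the libraries of a group were separate before capture is not settled. Some named genes are not reported here.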

Additional observations from a re-analysis of the deposited data

Results flagged for a closer look

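These genes differed in their hairpin response between Gzmk-negative cells and another CD4 set (edgeR interaction term, adjusted p under 0.05), with values on the log2 scale, positive where sh-B7-H3 (1) over sh-NC was higher in Gzmk-negative cells. Against Nkg7-zero cells the lower values were Rgcc -2.30, Cd40lg -2.24, Gpr183 -2.05, Klf2 -2.03, Tesc -2.02, Rgs16 -1.99, Prkca -1.98, Gm2682 -1.84, Slamf6 -1.83 and Klk8 -1.73. The higher values were Runx3 0.87, Tox 0.93, Gimap7 0.97, Irf2 1.11, Nap1l1 1.17, Bcl2 1.19, Vps37b 1.22, Rnaset2b 1.60, Zfp652 1.72 and Trat1 2.24. Of 30 called genes, named or on the lists, 24 lost the call when thinned to 3000 UMIs and 13 by DESeq2, with the direction kept. Rgs16 was not called between the hairpin groups in Gzmk-negative cells alone, at -0.22 ± 0.19, while in Nkg7-zero cells it stood at 2.06 and 2.78 CPM in sh-NC and 8.75 and 7.60 CPM in sh-B7-H3 (1).

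Against Gzmk-positive cells the lower values were Ccl1 -8.02, Xcl1 -4.67, Cd226 -2.27, Nrp1 -1.91, Prkca -1.76, Egr1 -1.67, Nrgn -1.53, Sms -1.36, Tbc1d4 -1.29 and Adgre5 -1.18. Ccl1 was at 0 in the Gzmk-positive cells of both sh-NC libraries, so its value depends on the prior count and is no bound. The higher values were Gimap7 1.20, Vps37b 1.30, Eomes 1.32, Gsta4 1.47, Trat1 1.48, Chn2 1.67, Ccl5 1.68, Prf1 1.71 and Cd7 2.52. Of these, Ccl5 and Xcl1 were called in all 14 refits with another setting or a library left out, and Cd7 in 13, all but that thinned to 3000 UMIs. The Xcl1 UMIs came largely from single cells, as given above, so its refits rest on much the same few cells. Most other genes did not hold. Of 27 called genes, named or on the lists, 23 lost the call by DESeq2 and 24 when thinned, with the direction kept.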

How the results depend on the processing

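The counts of called genes moved more with the settings than the directions did, and the causes were not tested. The hairpin comparison of RNA (127 genes) gave 25 when thinned to 3000 UMIs, 41 by DESeq2, 212 with no filter on low counts and 103 to 222 with a library left out. Its tags (12) gave 0 with the replicate block, 53 with no limit on fold and 0 to 15 with a library left out. Against Gzmk-positive cells the count of 33 became 19 with at least 5 Nkg7 UMIs and 106 with at least 2. It became 68 at a mitochondrial limit of 10%, 70 at 6000 genes and 7 when thinned. With no filter it was 123, with no library block 14 and with a library left out 16 to 65, and DESeq2 called 1 tag. Against Nkg7-zero cells it was 1743 with no filter and 2257 (tags 34) with no limit on fold. Against CD8 cells it was 360 (tags 8) when thinned and 1965 (tags 38) with no limit on fold. The interaction with Nkg7-zero cells gave 110 without scored doublets, 33 when thinned, 31 by DESeq2, 109 with no filter and 40 to 208 with a library left out. That with Gzmk-positive cells gave 32 with at least 2 Nkg7 UMIs, 23 at 6000 genes, 11 when thinned, 7 by DESeq2, 76 with no filter, 31 at a log2 difference of at least 1, and 21 to 130 with a library left out.

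The ratio of shares of kept cells was 6.27, and 9.63 and 8.55 when thinned to 3000 and 1000 UMIs. The difference in detection, in percentage points, was 32.2 for Ccl5 and -6.23 for Xcl1 at 1000 UMIs, and 32.0 for Ccl5 with no thinning. The difference in tag-positive cells was 41.5 points for CD39 and 4.22 for PD-1 at the 99th percentile.

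Signs turned, with no call, for Apoe (-0.64 with at least 2 Nkg7 UMIs), Cd69 (0.019 among cells positive for CD38 and CD39, a setting chosen after seeing the data) and Jun (0.048 without sh-NC library 2, against -2.01 without sh-NC library 1) between hairpins, for Cd226 (-0.10) and Rora (-0.20) against Nkg7-zero cells when thinned, and against CD8 cells for Fos (0.31 with at least 2 Nkg7 UMIs), Il10ra (-0.20) and Klre1 (-0.043) when thinned. Ccr2 was called lower than in Nkg7-zero cells when thinned (-1.28). Equal replicate numbers were not taken to pair the libraries. RNA deviations correlated at 0.01 and tag deviations at -0.09 between groups. Sums over so few control cells are noisy, so these correlations cannot settle whether equal numbers share a batch. The replicate block called 151 genes between hairpins. The few control cells, 30 and 35, limit what can be seen there.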

Other observations

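Trgv2, a gamma-chain segment gene of the T cell receptor, was left out of the named genes with the other receptor segments, and no test of it is given here. It stood at 69.4 and 76.1 CPM in the Gzmk-negative cells of sh-NC and 154 and 151 CPM in those of sh-B7-H3 (1), at 124 to 194 CPM in Gzmk-positive cells, and at 0 to 0.673 CPM in Nkg7-zero CD4 cells. It was seen in 3, 7, 40 and 38 Gzmk-negative cells. Trdc did not move with it, at 10.7, 190, 2.63 and 0 CPM in the Gzmk-negative cells, and part of the reads of such segment genes cannot be assigned with certainty. Tcrg-C2, the constant gene downstream of Trgv2, stood at 189, 48.6, 221 and 173 CPM in Gzmk-negative cells positive for CD38 and CD39 and at 0, 71.0, 9.26 and 0 CPM in the others.

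Cd7, a surface glycoprotein gene of T and NK cells, stood at 37.4 and 22.8 CPM in the Gzmk-negative cells of sh-NC and 101 and 82.2 CPM in those of sh-B7-H3 (1), while Gzmk-positive cells stood at 194 and 249 CPM and 123 and 131 CPM.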
